A study of Homo sapiens with 54 samples.

Results

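A set of 10 genes that mark the naive state of pluripotency was followed through human embryonic stem cells (ESCs) and induced pluripotent stem cells (iPSCs). They are KLF2, KLF4, KLF5, KLF17, DPPA2, DPPA3, DPPA5, TFCP2L1, ESRRB and TBX3. They were chosen by name, with earlier results of these data known, so their share called beside that of all probes is description. Each was taken from the probes whose RefSeq accession belongs to it. The 10 genes have 11 of the 42405 probes of the array and are 10 of the 19720 genes with a symbol. KLF2 was read by the probe of NM_016270, KLF4 by NM_004235, KLF5 by NM_001730, KLF17 by NM_173484, DPPA2 by NM_138815, DPPA3 by NM_199286, DPPA5 by NM_001025290, TFCP2L1 by NM_014553 and ESRRB by NM_004452. TBX3 has 2 probes of NM_016569, and the one with the higher mean signal stands for the gene unless the other is named.

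Pluripotent cells can be held in a naive state, which resembles the epiblast of the blastocyst before implantation, or in a primed state, which resembles the epiblast after implantation. Conventional human ESCs and iPSCs are primed, and they depend on fibroblast growth factor (FGF) and Activin or TGF-beta signals. The Krüppel-like factors KLF2, KLF4, KLF5 and KLF17 are zinc finger transcription factors, of which KLF17 marks human naive cells and KLF2 is a naive factor of the mouse. TFCP2L1, a CP2 family transcription factor, and ESRRB, an orphan nuclear receptor, act in the self-renewal network of mouse naive cells downstream of LIF and of GSK3 inhibition. TBX3 is a T-box transcription factor that acts in mouse naive self-renewal and also in many differentiating tissues. DPPA2 is a SAP domain protein that binds chromatin, DPPA3 (Stella) protects the maternal genome of the zygote from demethylation, and DPPA5 is a KH domain protein of pluripotent and germ cells.

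The samples were 54 one-colour arrays of 27 cultures, with 2 arrays of each culture. H1 ESCs in E8 Medium, a defined medium on Matrigel with no feeder cells and 100 ng/mL of bFGF, gave 3 pre-cultures and, in 3 experiments, cultures kept for 4 days with bFGF, with FGFC (a chimera of FGF1 and FGF2, also 100 ng/mL) or with no FGF. E8 holds TGF-beta 1, and the no FGF cultures kept it. By their titles, the pre-culture and the 4-day cultures were at passages 48 and 49 in experiment 1 and 50 and 51 in experiment 3. In experiment 2 they were at 49 and 59, so the labels do not place that pre-culture directly before its 4-day cultures. The long-term cultures with bFGF or FGFC were 1 of each, beside a pre-culture, in 5 systems, which were H1 in E8 for 30 days, 253G1 iPSCs in E8 for 36 days at 100 ng/mL, H1 in medium conditioned by mouse embryonic fibroblasts (MEF-CM) for 41 days at 5 ng/mL, KhES-1 ESCs on MEF feeder cells for 30 days at 5 ng/mL, and 201B7 iPSCs on MEF feeder cells for 50 days at 10 ng/mL. A further H1 culture was differentiated in vitro with no FGF. Each line is 1 line from 1 source, cultures of a system descend from related pre-cultures, and p-values measure the spread between such cultures. 201B7 and 253G1 were reprogrammed with retroviral factors that included KLF4, and whether the KLF4 probe also reads such a transgene was not tested. 253G1 in E8 and H1 in E8 share their medium, KhES-1 and 201B7 share feeder cells, and H1 was grown in 2 media, but each system lies on its own slides and scan days. Within a system, cultures can also lie on different slides.

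A level is the log2 of the processed signal minus the 75th percentile of that array, averaged over the 2 arrays of a culture, and it is compared within a probe only. From 56.2% to 79.2% of probes were well above background on an array, with 56.2% to 61.7% on the 253G1 arrays and 75.2% to 79.2% on those of H1 in MEF-CM. The lowest level that counted as well above background was -7.38 to -4.74 over the arrays, so levels in or under this range may lie in the background. A probe could also miss this mark at a higher level, as did KLF2 on both arrays of 253G1 with bFGF, at -4.38. The number of arrays limits the precision. As a check of the labels, POU5F1, SOX2, NANOG and LIN28A were well above background on all 54 arrays, and the log2 of their summed level was 8.00 to 9.15 in the 23 cultures with FGF, 7.49 to 8.05 in the 3 without FGF and 4.49 in the differentiated culture.

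RefSeq promoter windows of build GRCh38.p14 were found for 9 of the 10 genes, in 12 windows, and for TBX3 none was given. The 250 bases before the start site are shown for 5 genes whose levels separated the cultures below, 3 that were lower and 2 that were higher without FGF, so that the letters can be set beside the levels. CpG pairs are in capitals. The DPPA2 window lies on chromosome 3 at chr3:109316518-109316767 on the minus strand. That of DPPA5 lies at chr6:73354277-73354526 on the minus strand, that of TFCP2L1 at chr2:121285203-121285452 on the minus strand, that of DPPA3 at chr12:7711183-7711432 on the plus strand and that of KLF5, the second of its 2 windows, at chr13:73058755-73059004 on the plus strand.
DPPA2: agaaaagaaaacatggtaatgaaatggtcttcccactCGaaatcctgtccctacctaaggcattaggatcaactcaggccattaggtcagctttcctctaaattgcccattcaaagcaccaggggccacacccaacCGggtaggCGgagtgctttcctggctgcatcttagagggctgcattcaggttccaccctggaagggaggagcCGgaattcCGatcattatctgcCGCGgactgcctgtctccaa
DPPA5: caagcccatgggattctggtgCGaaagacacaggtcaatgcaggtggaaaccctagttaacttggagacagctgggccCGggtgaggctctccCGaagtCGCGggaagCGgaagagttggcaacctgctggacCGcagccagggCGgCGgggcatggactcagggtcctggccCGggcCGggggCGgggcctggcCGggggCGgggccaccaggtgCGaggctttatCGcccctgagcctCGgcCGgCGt
TFCP2L1: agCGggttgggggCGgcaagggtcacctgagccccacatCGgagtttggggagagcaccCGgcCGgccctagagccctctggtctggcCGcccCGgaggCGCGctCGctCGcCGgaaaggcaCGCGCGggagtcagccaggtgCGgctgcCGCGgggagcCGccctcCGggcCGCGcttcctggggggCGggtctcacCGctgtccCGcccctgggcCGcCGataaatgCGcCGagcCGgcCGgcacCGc
DPPA3: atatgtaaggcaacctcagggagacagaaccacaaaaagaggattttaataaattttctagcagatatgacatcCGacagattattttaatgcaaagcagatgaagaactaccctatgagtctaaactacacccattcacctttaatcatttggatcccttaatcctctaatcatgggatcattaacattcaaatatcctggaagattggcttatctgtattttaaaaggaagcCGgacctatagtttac
KLF5: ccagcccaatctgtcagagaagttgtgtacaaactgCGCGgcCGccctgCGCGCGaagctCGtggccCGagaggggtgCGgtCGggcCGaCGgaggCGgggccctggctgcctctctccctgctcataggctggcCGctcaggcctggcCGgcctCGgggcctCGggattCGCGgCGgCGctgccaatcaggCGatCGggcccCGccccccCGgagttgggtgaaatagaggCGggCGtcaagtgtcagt
The shown bases hold 7 CpG pairs for DPPA2, 19 for DPPA5, 32 for TFCP2L1, 2 for DPPA3 and 27 for KLF5. Over the whole window of 300 bases, they number 7 for DPPA2, 20 for DPPA5, 43 for TFCP2L1, 6 for DPPA3 and 37 for KLF5, and the 35116 promoters of the table have a median of 14 with quartiles of 4 and 28. In the DPPA5 window, a script that searched both strands found the letters GCCNNNGGC, the TFAP2 motif, at -74 and -57 from the start, each overlapping a copy of GGGGCGGGG, the KLF and SP motif, at -70 and -53. The window of KLF5 holds 1 copy of the KLF and SP letters on the other strand, at -50. Of all promoters in the table, 23.2% hold the TFAP2 letters and 15.7% the KLF and SP letters. Neither run of letters was found in the windows of DPPA2, DPPA3 and TFCP2L1.

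**Figure D1:**
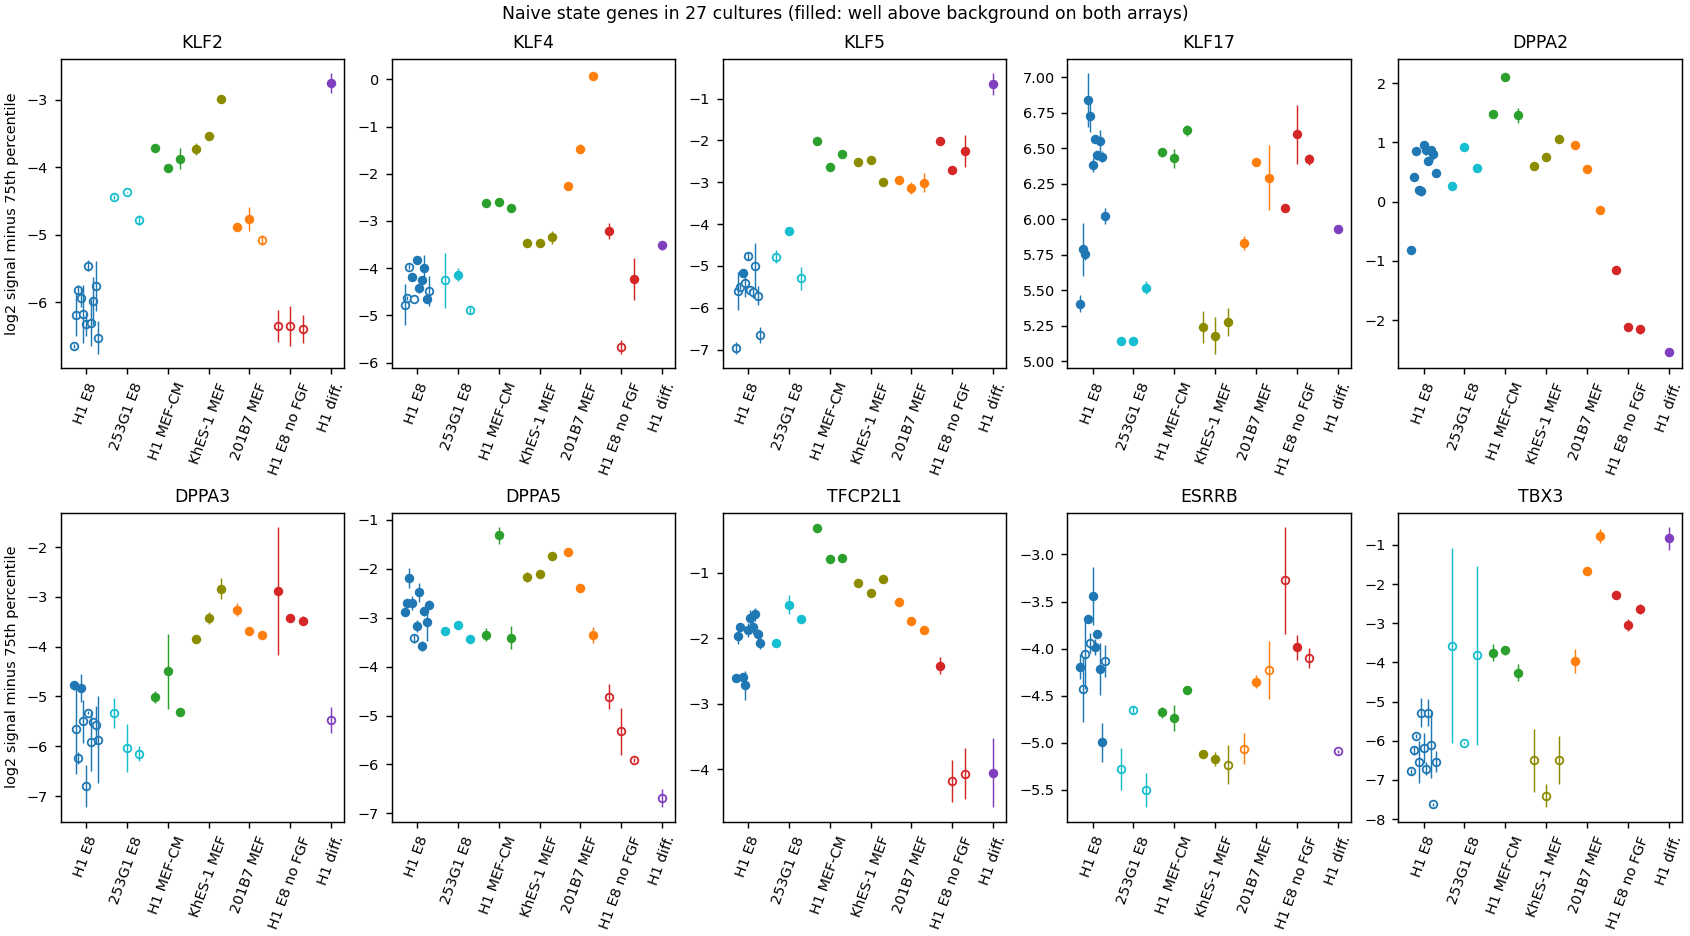
Levels of the 10 genes (log2 signal minus the 75th percentile of the array) in the 27 cultures, in 7 groups on the x axis. A point is the mean of the 2 arrays of a culture, its line joins both arrays, and a filled point was well above background on both. KLF4 and KLF5 are higher in all 9 feeder or conditioned medium cultures than in the 14 E8 cultures with FGF, and DPPA2 and DPPA5 are lowest without FGF and in the differentiated culture.

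DPPA2 and KLF17 were well above background on all 54 arrays, TFCP2L1 on 52, DPPA5 on 45, KLF4 on 43, ESRRB on 37, KLF5 on 36, DPPA3 on 29, TBX3 on 22 and KLF2 on 19. KLF17 had the narrowest range of the members, from 5.14 to 6.84 over the 27 cultures, with 5.93 in the differentiated culture. KLF17 has 1 probe on the array, and what this probe reads in these primed cells was not tested. The 2 arrays of a culture differed by a median of 0.07 (DPPA2) to 0.45 (TBX3) log2 units. The widest gaps were those of TBX3 in 253G1, where the arrays read -1.54 and -6.10 in the pre-culture and -1.08 and -6.06 in the FGFC culture, and that of DPPA3 in the no FGF culture of experiment 1, with -1.59 and -4.17.

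The removal of FGF for 4 days asks which of these genes follow the signal that holds primed cells. KLF5, DPPA3 and TBX3 rose and DPPA2, DPPA5 and TFCP2L1 fell against bFGF, while KLF2, KLF4, KLF17 and ESRRB did not pass the test. The 6 of 10 genes called compare with 12.7% of all probes, 5.54% higher and 7.19% lower. Against FGFC, TFCP2L1 did not pass and the other 5 of 10 did, 3 higher and 2 lower, beside 10.8% of all probes, 4.72% higher and 6.07% lower. The members' median difference from bFGF was -0.15, and that of all probes was 0.01.

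Among the Krüppel-like factors, KLF5, which is also a factor of trophectoderm and epithelia, was at -2.01, -2.72 and -2.25 in the no FGF cultures of experiments 1, 2 and 3. With bFGF it was at -4.76, -5.58 and -5.63, and with FGFC at -5.50, -5.16 and -5.42. The no FGF cultures were thus above all the others, which overlapped with the pre-cultures at -6.66 to -5.00. KLF5 was higher without FGF by 3.00 ± 0.38 (SE, adjusted p = 0.000434) against bFGF and by 3.03 ± 0.38 (adjusted p = 0.000459) against FGFC, or 8.01-fold and 8.19-fold. Both differences use the same no FGF cultures. With bFGF, KLF5 was well above background on 2 of 6 arrays, with FGFC on 3 of 6 and without FGF on 6 of 6.

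KLF4 differed between the experiments. Without FGF it was at -3.22, -5.67 and -4.23, against -3.83, -4.43 and -4.25 with bFGF, so the groups overlapped and the sign differed between experiments 1 and 2 (0.61 and -1.24). The difference of -0.20 had an interval of -1.28 to 0.87 (adjusted p = 0.836). KLF2 was well above background on none of the 18 arrays of the 4-day cultures, so no fold is given. KLF17, at 6.37 ± 0.26 (SD, n = 3) without FGF and 6.47 ± 0.09 (SD, n = 3) with bFGF, differed by -0.10 with an interval of -0.71 to 0.51.

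TBX3 was at -2.28, -3.05 and -2.64 without FGF. It was at -6.19, -6.71 and -5.28 with bFGF, where 0 of 6 arrays were well above background, and at -5.88, -6.55 and -5.28 with FGFC, also 0 of 6. All 6 arrays without FGF were well above background and above every array with FGF. The fitted difference was 3.40 ± 0.47 (adjusted p = 0.000702) against bFGF and 3.24 ± 0.47 (adjusted p = 0.00109) against FGFC. On this probe no array with FGF was well above background, and TBX3 was at least 7.47-fold higher than with bFGF and at least 6.34-fold higher than with FGFC. Each dim array is here set at the lowest signal that counted as well above background or at its own value, whichever is higher. Such bounds, here and below, hold for that setting only, since a probe could miss the mark above this lowest signal. They do not cover the spread between cultures. The intervals of the fitted differences were 2.37 to 4.43 against bFGF and 2.21 to 4.27 against FGFC. The other TBX3 probe moved the same way by 1.02 and 1.13 and missed the threshold (adjusted p = 0.0713 and 0.0552). These are 2.03-fold and 2.18-fold, under the bounds of the first probe. It was well above background on 2 of 6 arrays with bFGF, 3 of 6 with FGFC and 5 of 6 without FGF.

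The DPPA genes parted. DPPA2 was at -1.16, -2.12 and -2.16 without FGF, at 0.95, 0.87 and 0.68 with bFGF and at 0.85, 0.20 and 0.18 with FGFC. It was well above background on all of these arrays, and the no FGF cultures were below all others. DPPA2 fell by 2.65 (SE 0.28, adjusted p = 0.000125) against bFGF and by 2.22 (SE 0.28, adjusted p = 0.000466) against FGFC, to a 6.26-fold and a 4.65-fold lower level.

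DPPA5 was at -4.62, -5.32 and -5.91 without FGF, where 0 of 6 arrays were well above background. With bFGF it was at -3.16, -2.48 and -3.57 and with FGFC at -2.18, -2.70 and -3.42. No no FGF culture reached the range of the others. DPPA5 was at least 4.14-fold lower without FGF than with bFGF (fitted difference -2.21, SE 0.39, adjusted p = 0.00342) and at least 5.11-fold lower than with FGFC (-2.52, SE 0.39, adjusted p = 0.00175). The intervals of these differences were -3.08 to -1.35 and -3.38 to -1.66. Without experiment 2 the difference from bFGF was -1.90 and the call was lost (adjusted p = 0.0957).

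DPPA3 went the other way. It was at -2.88, -3.42 and -3.48 without FGF and at -6.80, -5.33 and -5.91 with bFGF, where 0 of 6 arrays were well above background. With FGFC it was at -6.23, -4.83 and -5.49, well above background on 2 of 6 arrays. DPPA3 was at least 4.84-fold higher without FGF than with bFGF (2.75 ± 0.40, adjusted p = 0.000951) and 4.79-fold higher than with FGFC (2.26 ± 0.40, adjusted p = 0.0038). The intervals of these differences were 1.88 to 3.63 and 1.38 to 3.14. Without experiment 3 neither call held (adjusted p = 0.0545 and 0.117), although the differences, 2.92 and 2.38, were no smaller. Without experiment 1 the difference from bFGF was 2.17 and the call held.

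TFCP2L1 was at -2.42, -4.18 and -4.06 without FGF. With bFGF it was at -1.87, -1.69 and -1.83, and with FGFC at -1.83, -2.59 and -2.71. In experiment 1 it was 0.54 lower than with bFGF, and in experiments 2 and 3 it was 2.49 and 2.23 lower. TFCP2L1 fell by 1.75 (SE 0.41, adjusted p = 0.0163) against bFGF. Without experiment 2 or 3 this call was lost (adjusted p = 0.202 and 0.27), as it was on the second arrays alone (0.0544), and without experiment 1 the difference was -2.36 and the call held. Against FGFC the difference was -1.18 ± 0.41 (adjusted p = 0.101), and it passed with the experiment number as a block (0.0497). ESRRB, at -3.27, -3.99 and -4.11 without FGF and -3.44, -3.98 and -3.85 with bFGF, differed by -0.03 with an interval of -0.66 to 0.60.

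**Figure D2:**
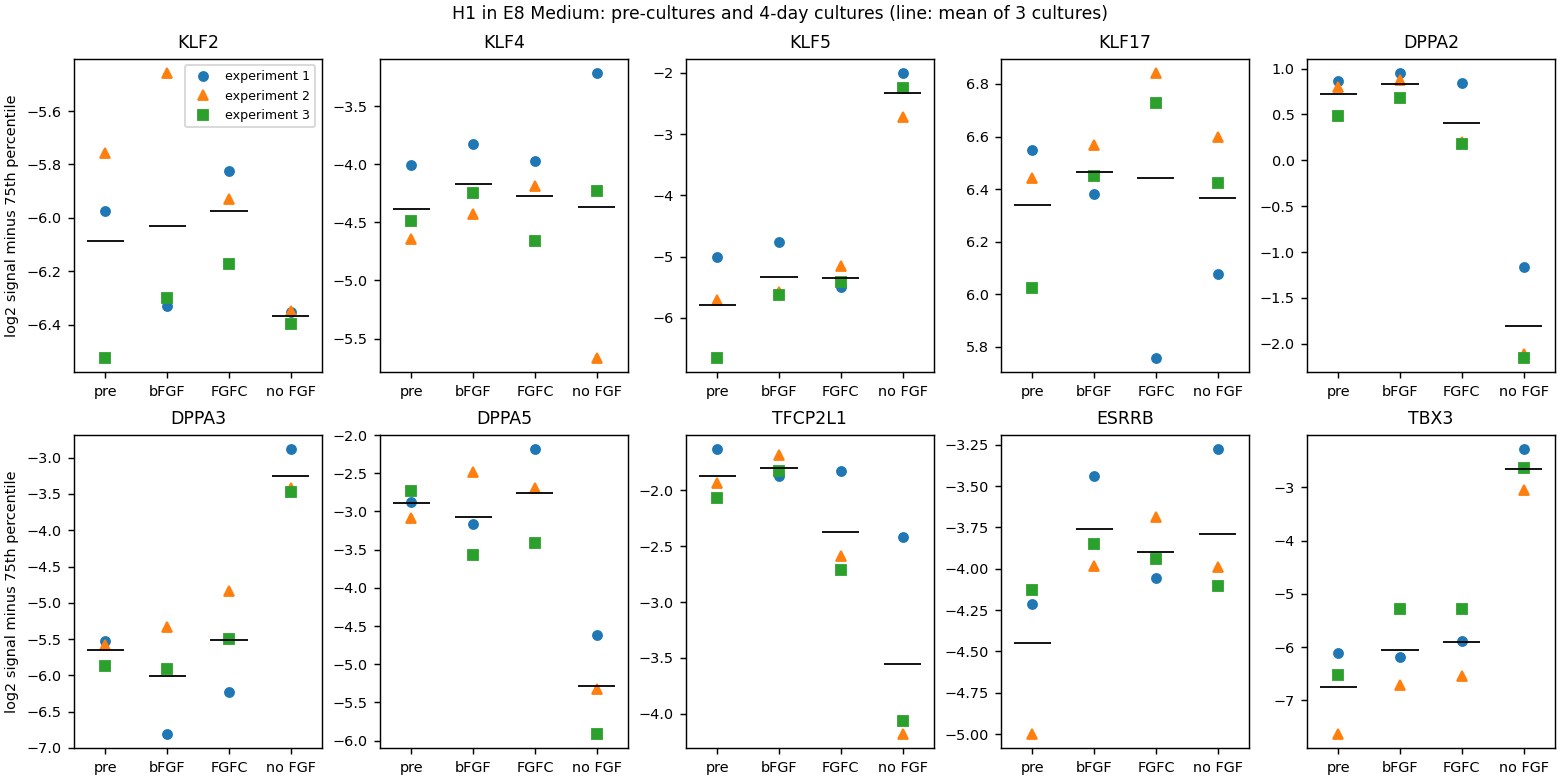
Levels of the 10 genes in H1 in E8 Medium (log2 signal minus the 75th percentile) in the pre-cultures and after 4 days with bFGF, FGFC or no FGF. Each symbol is 1 culture of 1 experiment and the line is the mean of 3. KLF5, DPPA3 and TBX3 are above, and DPPA2 and DPPA5 below, all other cultures in each experiment without FGF.

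Beside the loss of FGF, markers of other cell types moved. Of 8 amnion or trophoblast markers, 4 rose against bFGF (GATA3 by 5.41, TFAP2A by 4.18, VTCN1 by 2.75 and ISL1 by 1.36, each on 0 of 6 arrays well above background with bFGF) and 0 fell, and the log2 of the summed level of the list was 2.68 to 3.19 without FGF and 2.59 to 2.96 with bFGF. Of 4 neuroectoderm markers 3 rose, led by PAX6 with 5.44 (0 of 6 arrays well above background with bFGF), and the sum was 5.32 to 5.67 against 4.05 to 4.31. CDX2, HAND1, CGA and KRT7 did not pass the test. Of 4 mesoderm markers 1 passed (TBXT, 0.83, on 0 of 6 arrays well above background in either group, so the difference is one between levels at the background), of 6 endoderm markers 0 passed, and of 8 fibroblast markers 1 fell. In these bulk samples fewer cells of a type and less RNA per cell cannot be told apart, and the part of other cell types in the levels of the naive genes was not tested.

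Of 17 other genes of the naive state measured, 3 rose and 3 fell against bFGF. NR5A2, an orphan nuclear receptor that can stand in for POU5F1 in reprogramming, fell by 4.34 (SE 0.31), and OOEP, an oocyte protein of the subcortical maternal complex, fell by 3.33 (SE 0.25). GBX2, a homeobox factor, fell by 1.94, while TFAP2C, a factor of naive cells and trophectoderm, rose by 2.17 (SE 0.35). Of 13 genes of the primed state, OTX2 rose by 3.19 and DUSP6 and THY1 fell by 2.66 and 1.70. Of 6 core genes, SOX2 and SALL4 rose by 1.32 and 0.82 and NANOG and POU5F1 fell by 1.71 and 1.08. Of 7 genes of the LIF and STAT3 pathway, which feeds KLF4 and TFCP2L1 in the mouse, JAK1, LIFR and PIM1 fell by 2.10, 1.55 and 1.09 and 0 rose. Of 13 other KLF genes, KLF8 and KLF12 rose by 1.54 and 0.77 and KLF9 fell by 3.16. The median differences of these lists lay between -0.30 and 0.05.

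FGFC stood in for bFGF in the same 4-day experiments, and the question is whether any member differed between the FGFs. For 0 of 10 genes, and 0 of 42405 probes, did limma call a difference, while 1262 probes (2.98%) and 0 members had an unadjusted p under 0.05. The member differences, FGFC minus bFGF, ran from -0.58 for TFCP2L1 (interval -1.48 to 0.32) to 0.49 for DPPA3 (interval -0.38 to 1.37). DPPA2 was lower with FGFC in each experiment, by 0.10, 0.68 and 0.51, with a mean of -0.43 and an interval of -1.05 to 0.19. The other 7 genes were between -0.14 (ESRRB) and 0.31 (DPPA5), with KLF2 at 0.05, KLF4 at -0.10, KLF5 at -0.03, KLF17 at -0.02 and TBX3 at 0.16.

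H1 was the line grown in 2 media with FGF, and it shows how the members differed between E8 and MEF-CM. KLF2, KLF4, KLF5, TBX3, TFCP2L1 and DPPA2 were higher in MEF-CM and 0 members were lower. These 6 of 10 compare with 37.3% of all probes called, 10% higher and 27.2% lower, and the members' median difference was 1.31 beside -0.15 over all probes. The slides and scan days of the 2 media differ, so medium and slide cannot be told apart.

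KLF5 was at -2.32, -2.63 and -2.0 in the pre-culture, the bFGF and the FGFC culture in MEF-CM. In the 11 E8 cultures it was at -6.96 to -4.76 (median -5.58), and 8 of 22 arrays were well above background. The difference was 3.32 ± 0.33 (adjusted p = 1.97e-07), or 9.97-fold. All 3 cultures in MEF-CM lay above all 11 in E8.

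KLF2, a shear stress and lymphocyte factor as well as a naive one, was at -3.88, -4.02 and -3.72 in MEF-CM, well above background on 6 of 6 arrays. In E8 it was at -6.65 to -5.46 (median -6.17), with 1 of 22 arrays well above background. The groups did not overlap, and the difference was 2.23 ± 0.20 (adjusted p = 4.07e-08). KLF4 was at -2.73, -2.59 and -2.62 in MEF-CM and at -4.77 to -3.83 in E8 (median -4.43), which is 1.70 ± 0.30 higher (adjusted p = 0.000183), or 3.26-fold.

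TFCP2L1 was at -0.77, -0.79 and -0.31 in MEF-CM and at -2.71 to -1.63 in E8 (median -1.93), 1.44 ± 0.21 higher (adjusted p = 2.49e-05). DPPA2 was at 1.45, 2.11 and 1.48 against -0.81 to 0.95 (median 0.68), 1.18 ± 0.29 higher (adjusted p = 0.00277). Both genes fell without FGF against bFGF and were higher in MEF-CM than in E8. The FGF dose was 5 ng/mL in MEF-CM and 100 ng/mL in E8, and dose, medium and slide cannot be told apart here. TBX3 was at -4.26, -3.69 and -3.75 in MEF-CM and on 0 of 22 arrays in E8 well above background. It was at least 3.36-fold higher in MEF-CM by the bound (fitted 2.39 ± 0.54, interval 1.26 to 3.51, adjusted p = 0.00164). With the normexp background correction, however, the log2 difference was 0.36 (adjusted p = 0.249), which is under this bound. The other probe gave 0.46 (adjusted p = 0.252).

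DPPA3 (0.70, interval 0.04 to 1.36, adjusted p = 0.0899), ESRRB (-0.53, interval -1.02 to -0.04, adjusted p = 0.0821), KLF17 (0.24) and DPPA5 (0.20) did not pass. DPPA5 was at -1.31 in the bFGF culture in MEF-CM and at -3.41 and -3.35 in its other cultures, a spread wider than its difference between the media.

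Of the 17 other naive genes, 8 were higher and 4 lower in MEF-CM. TFAP2C was higher by 2.80 (SE 0.34), FGF4, a ligand made by the epiblast, by 2.22 (SE 0.26) and PRDM14, a repressor of differentiation genes, by 1.53 (SE 0.20), while GBX2 was lower by 1.82 (SE 0.35). Of 13 primed genes 3 were higher and 4 lower, with VIM higher by 3.43 and DUSP6, an ERK feedback gene, lower by 2.53. PIM1, a STAT3 target, was higher by 1.28 with JAK2 and JAK1 (0.64 and 0.48), and 0 of the 7 LIF and STAT3 genes were lower. KLF7 was higher by 2.13, and KLF15, KLF14 and KLF3 were lower by 1.22, 1.21 and 1.13. Of 8 fibroblast markers 3 were higher, led by COL1A1 with 2.11, and 3 lower, and the log2 of the summed level was 4.44 to 4.82 in MEF-CM and 2.39 to 3.77 in E8. The 3 lower ones, COL3A1, LUM and FAP, and also DCN were well above background on 0 of 6 arrays in MEF-CM. Of 6 endoderm markers AFP and ALB were 3.97 and 1.41 higher and GATA4 was 0.74 lower, and the endoderm sum was 3.08 to 4.15 against -0.73 to 1.02. The neuroectoderm sum was 5.86 to 6.34 against 3.92 to 4.74, with 3 of 4 markers higher. The part of such cells in the members' levels was not tested.

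**Figure D3:**
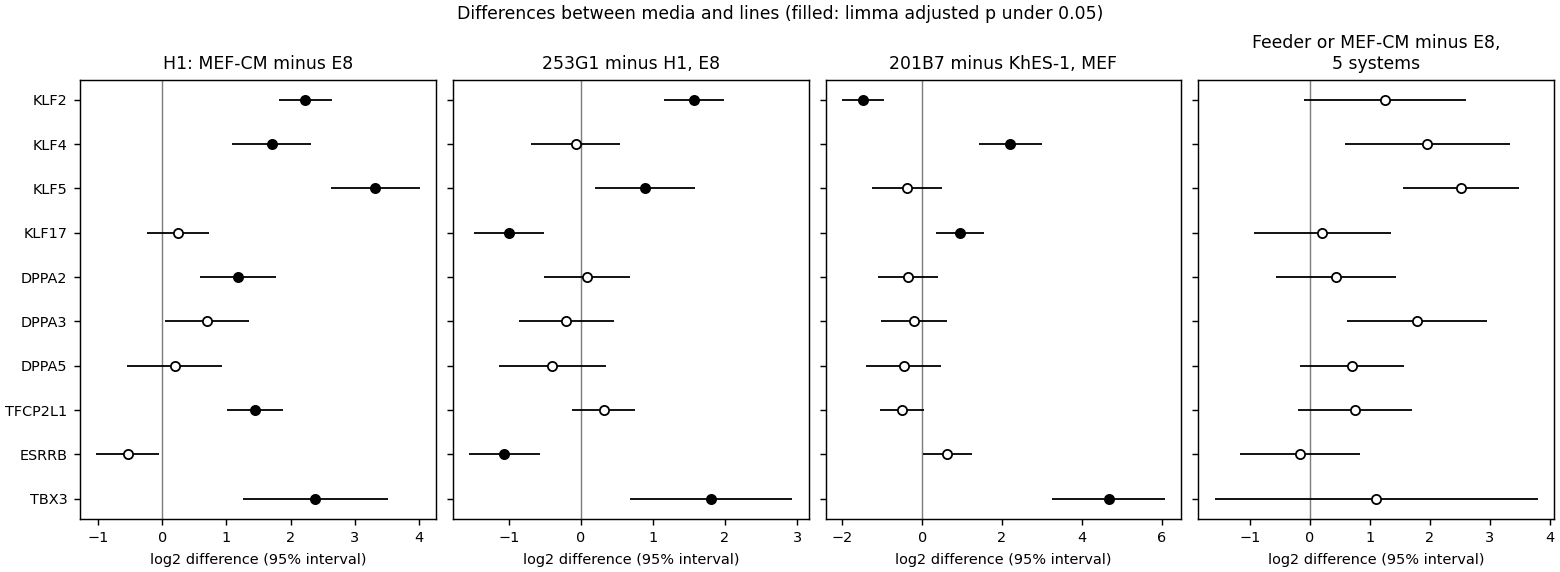
Log2 differences of the 10 genes with 95% intervals from limma for H1 in MEF-CM against E8, 253G1 against H1 in E8, 201B7 against KhES-1 on MEF feeder cells, and the 3 feeder or conditioned medium systems against the 2 E8 systems. Filled points passed the adjusted p of 0.05. KLF5 has the highest difference in the first panel (3.32) and in the last (2.52), where no gene passed.

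Over all 5 systems, 2 in E8 and 3 with feeder cells or MEF-CM, the mean of each system was the unit. Of 42405 probes 0 were called (limma) and of the 10 members 0, while 7780 probes (18.3%) and 3 members had an unadjusted p under 0.05. These 3 were KLF5 (2.52, interval 1.56 to 3.48), DPPA3 (1.78, interval 0.61 to 2.94) and KLF4 (1.96, interval 0.58 to 3.33), each with an adjusted p of 0.242. The other members were at 1.25 (KLF2), 1.10 (TBX3), 0.75 (TFCP2L1), 0.70 (DPPA5), 0.44 (DPPA2), 0.21 (KLF17) and -0.17 (ESRRB). With the 23 cultures and the system as a random block, KLF5 passed (2.56, adjusted p = 0.0267).

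Culture by culture, KLF4 and KLF5 were higher in all 9 feeder or conditioned medium cultures than in all 14 E8 cultures, which held for 288 of 42405 probes (0.679%). The lowest of the 9 was at -3.47 for KLF4 and -3.14 for KLF5, and the highest of the 14 at -3.83 and -4.15. DPPA3, DPPA5 and TFCP2L1 were higher in the mean of each of the 3 systems than in both E8 systems, with KLF4 and KLF5 5 of 10 genes, beside 5.74% of probes. For DPPA5 the nearest means were -2.69 (H1 in MEF-CM) and -2.89 (H1 in E8), closer than their SDs of 1.20 (n = 3) and 0.40 (n = 11). For TFCP2L1 they were -1.68 (201B7) and -1.75 (253G1), also closer than their SDs of 0.22 (n = 3) and 0.29 (n = 3). KLF2 broke the pattern through 201B7, at -4.91 ± 0.16 (SD, n = 3) beside -4.53 ± 0.22 (SD, n = 3) in 253G1, where 0 of 6 arrays were well above background.

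The order of the systems differed from gene to gene. For KLF4 it was 201B7 (-1.22), H1 in MEF-CM (-2.65), KhES-1 (-3.43), H1 in E8 (-4.35) and 253G1 (-4.43), of which the last pair overlapped and the others did not. For KLF5 the 3 feeder or conditioned medium systems, at -2.32 (H1 in MEF-CM), -2.65 (KhES-1) and -3.03 (201B7), overlapped in neighbouring pairs and stood apart from 253G1 (-4.74) and H1 in E8 (-5.64), which overlapped. DPPA3 was highest in KhES-1 (-3.37) and 201B7 (-3.57), which overlapped, and then came H1 in MEF-CM (-4.94), H1 in E8 (-5.64) and 253G1 (-5.84), each overlapping the next. For TFCP2L1, H1 in MEF-CM (-0.62) and KhES-1 (-1.18) stood apart from each other and from 201B7 (-1.68), 253G1 (-1.75) and H1 in E8 (-2.07), which overlapped in turn.

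For KLF2 the order was KhES-1 (-3.42), H1 in MEF-CM (-3.87), 253G1 (-4.53), 201B7 (-4.91) and H1 in E8 (-6.10), and the first pair and the second pair overlapped. KLF2 was well above background on 0 of 6 arrays of 253G1, 4 of 6 of 201B7 and 1 of 22 of H1 in E8. The place of 253G1 beside 201B7 and H1 in E8 is thus not settled. DPPA2 was highest in H1 in MEF-CM (1.68), apart from the rest, and KhES-1 (0.80), 253G1 (0.58), H1 in E8 (0.50) and 201B7 (0.45) overlapped. The ranges of DPPA5 overlapped between all neighbours, from KhES-1 (-2.0) through 201B7 (-2.47), H1 in MEF-CM (-2.69) and H1 in E8 (-2.89) to 253G1 (-3.29). ESRRB was highest in H1 in E8 (-4.08) and lowest in KhES-1 (-5.18), again with overlap between all neighbours. TBX3 ran from 201B7 (-2.14) through H1 in MEF-CM (-3.90), 253G1 (-4.48) and H1 in E8 (-6.29) to KhES-1 (-6.80), again with overlap between all neighbours. The last pair has no order, since TBX3 was well above background on 0 of 22 arrays of H1 in E8 and 0 of 6 of KhES-1. In 253G1 it was so on 2 of 6 arrays, and its pre-culture and FGFC culture had the wide gaps given above. The other TBX3 probe gave another order, H1 in MEF-CM (-5.33), 253G1 (-5.35), H1 in E8 (-5.80), 201B7 (-6.47) and KhES-1 (-6.99). On that probe 253G1, 201B7 and KhES-1 were each well above background on 0 of 6 arrays.

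The 2 lines in E8 ask what the line adds when the medium is shared. Against H1, 253G1 was higher in KLF2, KLF5 and TBX3 and lower in KLF17 and ESRRB by the test, 5 of 10 genes beside 35.9% of all probes, 14.3% higher and 21.6% lower. KLF2 was well above background on 0 of 6 arrays of 253G1 and 1 of 22 of H1, so its difference of 1.57 (adjusted p = 7.66e-06) is one between levels at the background and no fold is given. With normexp it was 0.36 (adjusted p = 0.06). TBX3 (1.81, adjusted p = 0.0135) rests on the pair of single arrays named above, and the second arrays alone gave 0.24 (adjusted p = 0.741). It was also lost without the pre-culture or the FGFC culture of 253G1 (adjusted p = 0.0932 and 0.125), and without the bFGF culture the difference was 2.59. The call on KLF5 (0.89 ± 0.33, adjusted p = 0.0415) was lost without the bFGF or the FGFC culture of 253G1 (adjusted p = 0.251 and 0.108). KLF5 was well above background on 2 of 6 arrays of 253G1 and 8 of 22 of H1. With normexp its difference was 0.15 (adjusted p = 0.458). The call was also lost on the second arrays (adjusted p = 0.22) and without FGFC cultures (adjusted p = 0.133).

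ESRRB was at -5.50, -4.65 and -5.28 in the pre-culture, the bFGF and the FGFC culture of 253G1, with 0 of 6 arrays well above background, and at -5.00 to -3.44 in H1 with 18 of 22. The fitted difference was -1.06 ± 0.24 (interval -1.55 to -0.57, adjusted p = 0.00173), and no fold is given, since 253G1 was not well above background. With normexp the difference was -0.38 and the call was lost (adjusted p = 0.0713). KLF17 was at 5.52, 5.14 and 5.14 in 253G1 and at 5.41 to 6.84 in H1, with a difference of -1.0 ± 0.23 (adjusted p = 0.00234). KLF4, DPPA2, DPPA3, DPPA5 and TFCP2L1 did not pass, with differences from -0.40 to 0.32. Of the 17 other naive genes 5 were higher in 253G1, among them NR0B1 by 1.69, and 7 lower, led by SUSD2, a surface marker of naive cells, by 2.65 (SE 0.23). Of 6 endoderm markers FOXA2 and AFP were higher by 3.07 and 2.41 and GATA4 was lower by 0.87, and the endoderm sum was 2.04 to 2.47 in 253G1 and -0.73 to 1.02 in H1. Of 4 neuroectoderm markers NES and TUBB3 were higher by 1.19 and 1.12, and that sum was 5.38 to 5.65 against 3.92 to 4.74. Their part in the members' levels was not tested.

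On MEF feeder cells, 201B7 was higher than KhES-1 in TBX3, KLF4 and KLF17 and lower in KLF2, 4 of 10 genes beside 31.4% of all probes, 20.6% higher and 10.8% lower. KLF4 was at 0.07, -1.47 and -2.27 in the pre-culture, the bFGF and the FGFC culture of 201B7 and at -3.35, -3.46 and -3.47 in KhES-1. All 3 cultures of 201B7 were above those of KhES-1, by 2.21 ± 0.38 (adjusted p = 0.000247) or 4.62-fold. Without the pre-culture of 201B7 the difference was 1.56 and the call held. Whether the 201B7 signal comes from the KLF4 gene or from a reprogramming transgene was not tested.

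TBX3 was at -0.77, -1.68 and -3.96 in 201B7 and at -6.49, -7.41 and -6.50 in KhES-1, where 0 of 6 arrays were well above background. It was at least 19.5-fold higher in 201B7 by the bound (fitted 4.66 ± 0.68, interval 3.25 to 6.08, adjusted p = 5.19e-05). The fitted difference was 3.98 without the pre-culture of 201B7, 5.58 without its FGFC culture and 5.73 without the FGFC cultures of all systems. The other TBX3 probe was well above background on no array of either line, and its difference was 0.51 (adjusted p = 0.28). KLF2 was at -5.07, -4.77 and -4.88 in 201B7 and at -2.99, -3.54 and -3.73 in KhES-1, -1.49 ± 0.25 (adjusted p = 0.000234), and with normexp the difference was -0.15 (adjusted p = 0.461). KLF17 was 0.94 ± 0.29 higher in 201B7 (adjusted p = 0.0187). It was lost without the pre-culture or the bFGF culture of 201B7 (adjusted p = 0.0712 and 0.0707) or the bFGF culture of KhES-1 (0.0568). The median difference over all probes was 0.34, and ESRRB (0.63), DPPA3 (-0.21), DPPA2 (-0.35), KLF5 (-0.38), DPPA5 (-0.46) and TFCP2L1 (-0.50) did not pass. Of the 17 other naive genes, DNMT3L and ARGFX were 1.54 and 0.95 higher and SUSD2 was 1.0 lower in 201B7. DCN, a fibroblast marker, was at 6.07 in 201B7 and -3.62 in KhES-1, 9.69 higher, and the log2 of the summed fibroblast list was 5.62 to 7.49 against 3.49 to 4.10, with 2 of 8 markers higher. GATA3, ISL1 and TFAP2A of the 8 amnion or trophoblast markers were 2.63, 2.25 and 1.11 higher in 201B7, and that sum was 2.81 to 3.57 against 3.1 to 3.29. Of 6 endoderm markers GATA4 was 1.36 higher, on 2 of 6 arrays well above background in 201B7 and 0 of 6 in KhES-1, and the endoderm sum was 2.07 to 2.82 against 0.97 to 1.76. Their part in the members' levels was not tested.

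The step from E8 to feeder cells or MEF-CM can be taken within H1 and, with a change of line, between the iPSCs (201B7 on MEF minus 253G1 in E8), and the difference of these steps was tested. For 6 of 10 members it passed, 3 higher and 3 lower, beside 16.9% of all probes, 9.8% higher and 7.06% lower. The iPSC step was lower than that of H1 for KLF2 (difference -2.60 ± 0.32, adjusted p = 1.1e-05), KLF5 (-1.61, adjusted p = 0.0424) and TFCP2L1 (-1.37 ± 0.34, adjusted p = 0.00764). It was higher for DPPA3 (1.57, adjusted p = 0.0373) and KLF4 (1.5, adjusted p = 0.035), and for ESRRB it was 1.13 above (adjusted p = 0.0437). DPPA2, at -1.31, missed the threshold (adjusted p = 0.0547) and passed with normexp (0.00873), quantile normalization (0.047), only probes well above background (0.042), the slide as a random block (0.0119) and without the FGFC cultures (0.0123). KLF17 (0.66), DPPA5 (0.62) and TBX3 (-0.04) did not pass. For KLF4, KLF5, DPPA3 and ESRRB the call was lost without each of several single cultures of 201B7, 253G1 and H1 in MEF-CM. Without the pre-culture of 201B7, KLF4 was at 0.85 (adjusted p = 0.109), and without all FGFC cultures at 2.15. With normexp, KLF2 (-0.14, adjusted p = 0.61) and KLF5 (-0.25, adjusted p = 0.341) lost their calls. In this comparison line and medium cannot be told apart.

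Long-term culture with FGFC in place of bFGF gave 1 culture of each in each of the 5 systems. Of 10 members 0 and of 42405 probes 0 were called (limma with the system as a block), and 2537 probes (5.98%) and 0 members had an unadjusted p under 0.05. The mean differences, FGFC minus bFGF, ran from -0.45 for DPPA2 (interval -1.01 to 0.10) to 0.22 for DPPA3 (interval -0.37 to 0.80). For DPPA2, 4 of 5 systems were lower with FGFC, by 1.22 in H1 in E8, 0.66 in 253G1, 0.63 in H1 in MEF-CM and 0.16 in KhES-1, and 201B7 was higher by 0.40. The other members were at -0.34 (DPPA5), -0.24 (KLF5), -0.22 (KLF4), -0.20 (ESRRB), -0.17 (KLF17), -0.11 (KLF2), -0.06 (TFCP2L1) and 0.10 (TBX3).

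Single systems went further than the means. In H1 in MEF-CM, DPPA5 was at -1.31 with bFGF and -3.35 with FGFC. In H1 in E8, KLF5 was at -5.60 and -6.96, of which the second was well above background on neither array. In 201B7, KLF4 stepped from 0.07 in the pre-culture to -1.47 after 50 days with bFGF and -2.27 with FGFC, and TBX3 from -0.77 to -1.68 and -3.96. In the same line DPPA5 went from -3.35 to -2.38 and -1.66 and DPPA2 from -0.14 to 0.55 and 0.95. Of all probes in 201B7, 8.48% were lower 2-fold or more with bFGF than in the pre-culture and 18.5% with FGFC. KLF4 was 1 of 10 members that low with bFGF, and KLF4 and TBX3 were 2 of 10 with FGFC. With 1 culture of each, these steps have no replicate check. The 201B7 pre-culture also lay on another slide and scan day than the 50-day cultures. Its 75th percentile was 182 and 234 on its 2 arrays, beside 504 to 632 on theirs. Time in culture and slide thus cannot be told apart in the steps from the pre-culture.

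**Figure D4:**
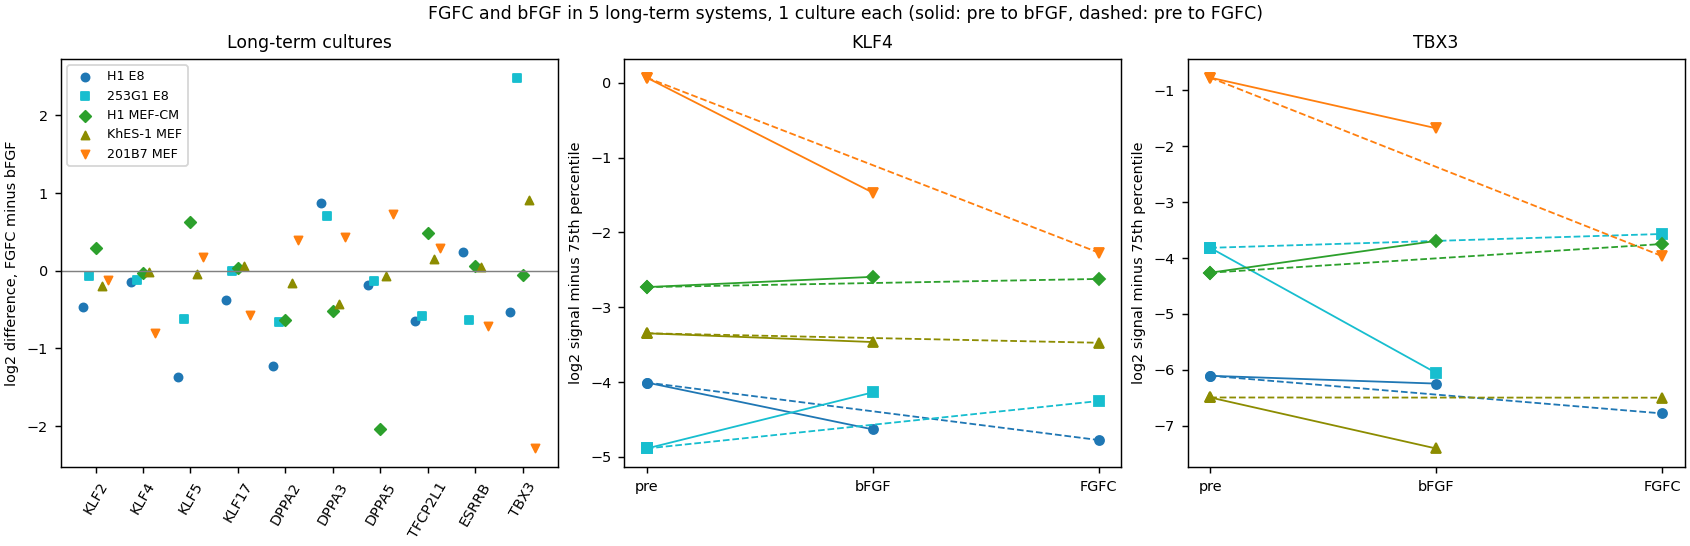
Left, log2 differences FGFC minus bFGF of the 10 genes in the 5 long-term systems, 1 culture each; middle and right, levels of KLF4 and TBX3 (log2 signal minus the 75th percentile) in the pre-culture and after bFGF (solid line) or FGFC (dashed line). The 201B7 cultures lead in KLF4 at 0.07, -1.47 and -2.27, and DPPA5 in H1 in MEF-CM differs by -2.04 between the FGFs.

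The differentiated H1 culture held some members high and others low. TBX3 was at -0.83, KLF5 at -0.65 and KLF2 at -2.75, all well above background on both arrays. The means of the 3 pre-cultures were -6.75, -5.79 and -6.09, with 0, 2 and 1 of 6 arrays well above background, so these differences run from levels at or near the background. DPPA2 and TFCP2L1 were lower than in the pre-cultures by 3.26 and 2.18, and DPPA5 was at -6.69 with neither array well above background, against -2.90 in the pre-cultures. This is 6 of 10 genes past 2-fold beside 29.7% of all probes, with 1 culture and no test. KLF5, TBX3, DPPA2, DPPA5 and TFCP2L1 lay on the same side as after FGF removal, and DPPA3, at -5.47 with neither array well above background, did not.

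Across the 27 cultures, which share line, medium and slide in blocks, levels of some members ran together, given here as description. DPPA2 and TFCP2L1 had a Pearson r of 0.93, DPPA2 and DPPA5 of 0.85, and over the 23 undifferentiated cultures with FGF KLF2 and KLF5 had an r of 0.86 and DPPA2 and TFCP2L1 of 0.81. KLF5 and TFCP2L1 had an r of 0.79 over these 23 cultures and of -0.03 over all 27, where the cultures without FGF hold KLF5 high and TFCP2L1 low. KLF2 and ESRRB had an r of -0.71 over the 23. Of the 28 E8 arrays with FGF, KLF2 was well above background on 1 and KLF5 on 10. Their r values thus rest partly on levels at the background. Of the other genes, 14708 genes with a symbol that were well above background on both arrays in 14 or more cultures were compared with each of the 8 members for which this held. The 3 with the highest r over 27 cultures were LIMCH1 (0.96), BMP4 (0.96) and TFAP2C (0.94) for KLF5, FXYD5 (0.96), HECTD2-AS1 (0.96) and CASP10 (0.95) for DPPA2, and FXYD5 (0.93), ENPP1 (0.91) and ZNF398 (0.91) for TFCP2L1. For DPPA5 they were PODXL (0.92), SLC16A1 (0.91) and KLK13 (0.91), for DPPA3 LGR4 (0.90), SLC16A9 (0.88) and BICD1 (0.88), and for KLF4 MT1A (0.90), TAB2 (0.88) and PTPRN (0.88). For ESRRB they were LINC00656 (0.88), OR5C1 (0.87) and RHCG (0.87), and for KLF17 TNFAIP8L1 (0.99), SLC25A51 (0.99) and ANKRD45 (0.98).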

How the data were processed

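RNA of 27 human ESC and iPSC cultures was read on 54 one-colour (Cy3) Agilent arrays, 2 of each culture. The deposited intensity values are the scanner's processed signals, which the authors made with Agilent Feature Extraction 10.7.3.1 (background subtracted within each array, no scaling between arrays). The file headers name hg19 as the build of the array annotation. The authors' deposited value table holds the same signals as the scanner files and was not used further. Control spots (4259 of 62976) and 266 to 623 outlier spots on each array were not used, spots of a probe were averaged, and log2(signal) minus the 75th percentile of the array was taken. No spot was saturated. The 75th percentile was 182 to 913 across arrays.

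Groups came from the labels. Probes were named through their RefSeq accession. Both arrays of a culture entered as their mean, as 1 replicate. limma 3.58.1 in R 4.3.3 (lmFit, eBayes) was fitted to all 42405 probes with Benjamini-Hochberg adjustment and a threshold of 0.05. The 4-day comparisons used 12 cultures, the system and line comparisons the 23 cultures with FGF, the medium comparison 5 system means, and the long-term comparison 10 cultures with the system as a block. Intervals are 95% intervals of limma. The H1 E8 cultures serve both the medium and the line comparison. The 10 members and all gene lists were chosen with earlier results of these data known. The members are named in the comparisons, and of each list up to 4 genes past the test by size of difference, among those named. The scripts were tested on simulated data.

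The experiment number pairs the 4-day cultures, which the labels number and the headers place on 1 scan day per experiment. Deviations from the group means correlated at 0.077 to 0.32 within an experiment (9 pairs) and at -0.22 to 0.071 between experiments (18 pairs). Alternatives were normexp (offset 50), quantile normalization, either array alone, only probes well above background, experiment or slide as a block, each replicate left out, FGFC cultures left out and the other probe of TBX3.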

Additional observations from a re-analysis of the deposited data

Results flagged for a closer look

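The KLF4 difference FGFC minus bFGF in 201B7, -0.80, stood apart from those of the other 4 systems by Dixon's test (critical value 0.71 for 5 values, 10 genes tested), which flags about 1 in 20 groups by chance.

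The step from E8 to feeder cells or MEF-CM differed between the iPSCs (201B7 minus 253G1) and H1 by -2.60 for KLF2, 1.5 for KLF4, -1.61 for KLF5, 1.57 for DPPA3, -1.37 for TFCP2L1 and 1.13 for ESRRB. The limma test of the difference itself passed for each in the reported fit, where line and medium cannot be told apart. With normexp the calls on KLF2 (-0.14, adjusted p = 0.61) and KLF5 (-0.25, adjusted p = 0.341) were lost. On the second arrays 2 members were called. KLF4, KLF5, DPPA3 and ESRRB lost their calls without single cultures. In 253G1, KLF2, DPPA3 and ESRRB were well above background on 0 of 6 arrays.

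The differentiated H1 culture, which has no replicate, was above all 26 other cultures in KLF2 (-2.75) and KLF5 (-0.65).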

How the results depend on the processing

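Of 32 called member differences, 13 kept their call under every alternative tried. Over all 384 alternative values 314 kept direction and call, 70 kept the direction and lost the call, and 0 reversed. The causes of the changes below were not tested.

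The experiment number as a replicate block moved TFCP2L1, no FGF minus FGFC, past the threshold (-1.18, adjusted p = 0.0497) and changed no other member call. Fitting only the 2 arms compared gave 9750 probes against bFGF and 2553 against FGFC, in place of 5400 and 4575. The slide as a block gave 10936 and 11154, and 12 in place of 0 for FGFC minus bFGF.

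For H1 in MEF-CM minus E8, 15799 probes became 8687 with normexp, 9826 with quantile normalization, 9570 with only probes well above background and 9980 without FGFC cultures. For 253G1 minus H1, the 5 members called became 1 with normexp, 3 on the second arrays and 3 without FGFC cultures. For 201B7 minus KhES-1, 13317 probes became 8569 with quantile normalization. Over the 5 systems, 0 probes became 353 with normexp and 307 with the system as a random block, where 1 member was called. For the difference of the medium effect, 7151 probes became 22862 with normexp, and 6 members became 2 on the second arrays.

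Differences that turned sign were uncalled in the reported fit, and at their new value all but TBX3 in the difference of the medium effect with normexp (adjusted p = 0.0454) were too. Against bFGF, KLF4 was 0.14 with normexp and 0.049 with quantile normalization, and ESRRB 0.075, 0.14 and, on the second arrays, 0.069. Against FGFC, KLF4 was 0.083 and 0.12, and on the first arrays KLF17 was 0.095 and ESRRB -0.15. DPPA3 was -0.021 in MEF-CM minus E8 with normexp. In 253G1 minus H1, KLF4 was 0.40 with quantile normalization and 0.080 on the second arrays, and DPPA3 0.38 with quantile normalization. In 201B7 minus KhES-1 with normexp, KLF5 was 0.049, DPPA3 0.14 and DPPA5 0.032. TBX3 over the 5 systems was -0.69 by its other probe. In the difference of the medium effect, DPPA5 was -0.16 without FGFC cultures, and TBX3 was 0.91 with normexp, 1.75 on the second arrays and 1.31 without FGFC cultures.

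Leaving out 1 replicate at a time gave 1272 to 3557 probes and 4 to 6 members against bFGF, with KLF4 from -0.61 to 0.32, KLF17 from -0.17 to 0.0010 and ESRRB from -0.13 to 0.080. Against FGFC it gave 974 to 3840 probes and 4 to 6 members, with KLF4 from -0.53 to 0.59, KLF17 from -0.28 to 0.039 and ESRRB from -0.23 to 0.31. FGFC minus bFGF stayed at 0 to 0 probes at 4 days and in long-term culture. MEF-CM minus E8 gave 10851 to 12924 probes and 6 to 6 members (DPPA5 from -0.49 to 0.56). 253G1 minus H1 gave 9662 to 11102 and 3 to 4 (KLF4 from -0.22 to 0.16, DPPA2 from -0.084 to 0.24). 201B7 minus KhES-1 gave 6957 to 17151 and 3 to 5 (DPPA3 from -0.45 to 0.058). The 5 systems gave 0 to 28 and 0 to 0 (KLF17 from -0.29 to 0.70, ESRRB from -0.70 to 0.36), and the difference of the medium effect 4875 to 8981 and 2 to 5 (TBX3 from -0.83 to 0.87).

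Signal over background limits KLF2, TBX3 and DPPA3 in E8 most, where few arrays were well above it.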
